A study of Homo sapiens with 39 samples.

Results

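The 10 genes described here encode enzymes that make, activate, reduce, oxidise or desulfate steroids: CYP17A1, HSD3B1, HSD17B4, HSD17B6, HSD17B11, HSD17B14, SRD5A1, SRD5A3, AKR1C3 and STS. They are a listed set of steroid enzyme genes, matched by symbol to a table of raw counts of 63187 genes, and all 10 were found. RNA was sequenced from C4-2B cells, a castration-resistant prostate cancer (CRPC) line derived from LNCaP, in 39 libraries that fall into 13 groups of 3 replicates. In a panel of 7 groups (replicates A to C), cells were treated for 5 days with the vehicle DMSO, the androgen pathway inhibitors (ARPi) abiraterone acetate at 5 μM or enzalutamide at 20 μM, the PARP inhibitors (PARPi) olaparib at 1 μM or talazoparib at 10 nM, abiraterone acetate with olaparib, or enzalutamide with talazoparib, each combination at the doses of its single drugs. In a time course of 6 groups (replicates 1 to 3), cells were treated with DMSO, olaparib at 1 μM or olaparib at 5 μM for 1 or 5 days. Every group, DMSO included, is the same single line, kept in medium with 10% fetal bovine serum that nothing states to be stripped of steroids. Nothing states that replicates were separate cultures, so p-values measure the spread between these libraries, which may be technical.

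Steroid precursors are turned into potent androgens in short chains of steps. CYP17A1 makes the adrenal-type precursors, STS frees them from sulfate, HSD3B1 commits them to the androgen path, AKR1C3 and SRD5A1 make testosterone and dihydrotestosterone, and members of the HSD17B family oxidise active steroids or bring them back from storage forms. In CRPC these steps are studied as sources of androgen inside the tumour, and abiraterone was designed to block the first of them.

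Total counts ran from 26932205 to 49833473 per library in the panel and from 34214001 to 44893664 in the time course. The 9 luminal prostate markers listed for the check, among them KLK3 and HOXB13, summed to between 2758 and 5505 CPM (counts scaled to the effective library size) in every library. Many defining markers of other cell types (TP63 and KRT5 of basal cells, DCN, LUM and COL1A2 of stroma, CD3E of T cells, CHGA of neuroendocrine cells, NR5A1 and CYP11B1 of adrenal or gonadal cells) held at most 3 counts in any library. Other markers on the same lists were detected and most of them moved with treatment, and their part in the results below was not tested. The stroma list summed to 10.5 to 22.1 CPM, through COL1A1, which rose with every panel treatment, by 0.25 ± 0.07 (SE) on the log2 scale with talazoparib to 0.86 ± 0.07 with abiraterone plus olaparib. The basal list reached 1.94 CPM through the keratin KRT14, which rose by 1.62 ± 0.25 with 1 μM and 2.07 ± 0.25 with 5 μM olaparib at day 5 and changed by -3.27 ± 0.70 with enzalutamide. The neuroendocrine list summed to 0.814 to 2.50 CPM, through SYP, which fell with every panel treatment, and the adrenal or gonadal list reached 7.38 CPM, through CYP11A1, described with the pathway lists, and STAR at low counts. The summed immune markers ran from 2.95 to 29.6 CPM. CD68, a lysosomal gene of macrophages, changed by -0.73 ± 0.16 (SE) on the log2 scale with abiraterone and -1.14 ± 0.16 with enzalutamide, while the PARPi values were 1.32 ± 0.14 (olaparib) and 1.16 ± 0.14 (talazoparib), and PTPRC went from a mean of 1 count in DMSO to 12 with abiraterone and 20.7 with enzalutamide. KLK3, the androgen-driven gene for prostate-specific antigen, fell by 1.58 ± 0.05 (SE) on the log2 scale with abiraterone and by 2.25 ± 0.05 with enzalutamide. Bulk RNA cannot tell fewer expressing cells from less RNA per cell.

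Sequence upstream of the transcription start is given for 4 of the genes: the member with the largest rise under ARPi (HSD3B1), the target of abiraterone (CYP17A1), and a pair that fell with abiraterone and rose with a PARPi alone at day 5 (SRD5A1 and HSD17B11). The stretches come from RefSeq on GRCh38.p14, run 5′ to 3′ on the gene's strand up to the annotated gene start, and have each CG dinucleotide in capitals. They lie at chr1:119506953-119507197 (plus strand, HSD3B1), chr10:102837473-102837663 (minus strand, CYP17A1), chr5:6633190-6633426 (plus strand, SRD5A1) and chr4:87391189-87391438 (minus strand, HSD17B11).
HSD3B1: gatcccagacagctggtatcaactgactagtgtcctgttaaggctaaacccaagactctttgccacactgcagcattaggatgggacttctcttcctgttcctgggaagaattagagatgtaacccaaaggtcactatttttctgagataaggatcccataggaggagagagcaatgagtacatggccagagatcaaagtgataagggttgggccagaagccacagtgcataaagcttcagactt
CYP17A1: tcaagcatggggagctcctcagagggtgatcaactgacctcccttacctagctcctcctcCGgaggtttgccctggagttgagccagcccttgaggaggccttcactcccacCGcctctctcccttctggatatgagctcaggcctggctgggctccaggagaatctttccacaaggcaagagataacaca
SRD5A1: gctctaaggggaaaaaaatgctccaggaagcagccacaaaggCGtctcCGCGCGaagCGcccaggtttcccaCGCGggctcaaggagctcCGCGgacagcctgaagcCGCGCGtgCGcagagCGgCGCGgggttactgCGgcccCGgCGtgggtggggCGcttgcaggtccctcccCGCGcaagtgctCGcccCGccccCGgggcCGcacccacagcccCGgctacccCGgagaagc
HSD17B11: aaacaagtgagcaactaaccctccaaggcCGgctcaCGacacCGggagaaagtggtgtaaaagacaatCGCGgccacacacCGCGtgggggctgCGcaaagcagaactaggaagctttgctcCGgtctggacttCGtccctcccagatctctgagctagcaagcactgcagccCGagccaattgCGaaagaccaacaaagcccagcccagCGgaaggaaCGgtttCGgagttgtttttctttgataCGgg
Within 250 bases before the RefSeq start, CG occurred 0 times for HSD3B1, 2 times for CYP17A1, 16 times for HSD17B11 and 28 times for SRD5A1, against a median of 11 over 27305 genes in the same table. At most 5 were found in 38.7% of these genes.

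Levels differed widely between the 10 genes. Expressed as CPM per kilobase of the annotated main transcript, mean levels in panel DMSO were 79.5 ± 1.70 (SD, n = 3) for HSD17B4, 11.3 ± 0.421 for SRD5A3, 8.01 ± 0.602 for HSD17B11, 5.76 ± 0.149 for SRD5A1 and 4.75 ± 0.391 for STS. Below these came HSD17B6 at 2.41 ± 0.115, HSD17B14 at 0.604 ± 0.0680, HSD3B1 at 0.0780 ± 0.0337, CYP17A1 at 0.0513 ± 0.0438 and AKR1C3 at 0. Neighbours in this order were separated by more than their SDs except HSD3B1 and CYP17A1, whose ranges over replicates overlapped. The order was the same in DMSO of the time course at day 1, where HSD17B4 stood at 68.9 ± 0.899 and AKR1C3 at 0.00731 ± 0.0126. Per length, the RNA of HSD17B4, a peroxisomal dehydrogenase, was thus the most abundant of the set, and little or none was found for CYP17A1, HSD3B1 and AKR1C3.

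**Figure D1:**
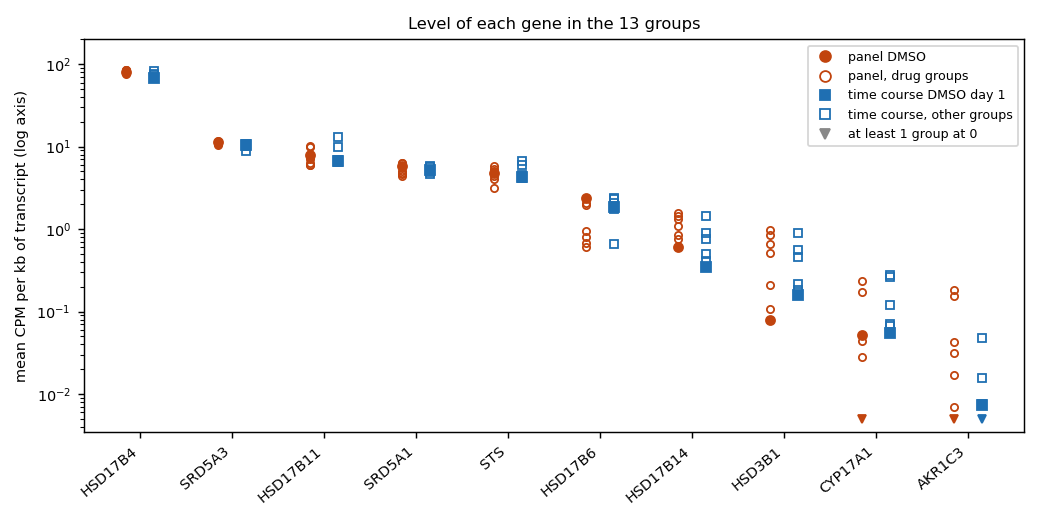
Mean level of each gene in each of the 13 groups, in CPM per kilobase of transcript on a log axis (circles, panel; squares, time course; filled symbols, panel DMSO and time course DMSO at day 1; triangles at the bottom, at least 1 group with no count). HSD17B4 lies near 79.5 in panel DMSO, and CYP17A1 and AKR1C3 lie at the bottom of the scale.

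Of the 10 members, 9 held enough counts to be tested in each experiment and AKR1C3 did not. In edgeR's quasi-likelihood test with Benjamini-Hochberg adjustment over all genes, the threshold was an adjusted p below 0.05. With abiraterone 5 of 9 members were past it (1 higher, 4 lower), against 52.9% of all genes tested, and with enzalutamide 5 of 9 (2 higher, 3 lower), against 53.3%. With olaparib in the panel 5 of 9 rose and none fell, where 35.6% of all genes were past the threshold (19.6% higher, 16% lower). With talazoparib 7 of 9 rose and none fell, where 33.8% were (18.4% higher, 15.4% lower). The combinations moved 6 of 9 (3 higher, 3 lower) with abiraterone plus olaparib, against 62.2%, and 8 of 9 (3 higher, 5 lower) with enzalutamide plus talazoparib, against 62.4%. The median log2 fold change of the tested members was -0.13 with abiraterone (0.00030 over all genes), -0.18 with enzalutamide (0.017), 0.30 with olaparib (0.015) and 0.16 with talazoparib (0.020), and it stayed the same with CYP17A1 set to its counting limit. The members' counts under ARPi were near the share of all genes. CYP17A1 and HSD3B1 reached the testable level only in some groups, and their presence among the 9 is no support for a change.

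Scaling by total counts in place of TMM moved the split of calls over all genes between higher and lower by more than 10 percentage points in 10 of 20 comparisons. The share of higher calls went from 48.7% to 60% with abiraterone, from 55.1% to 43% with olaparib in the panel, from 54.5% to 40% with talazoparib and from 42.2% to 56.3% for the enzalutamide and talazoparib interaction. In the time course it went from 39.8% to 59.9% with 1 μM and from 48% to 60.3% with 5 μM olaparib at day 1, from 49.6% to 38.7% between doses at day 5, from 45.3% to 57.7% for DMSO over time, and from 52.3% to 37.4% and 49.6% to 33.2% for the change of the 1 and 5 μM effects between days. The last of these moved the median of all genes from -0.022 to -0.153, and none of the member values past the threshold changed direction with it.

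In the time course more of the members were past the threshold at day 5 than at day 1, as was the case for all genes. After 1 day, 1 of 9 rose at 1 μM, against 15.8% of all genes past the threshold (6.3% higher, 9.52% lower), and 4 of 9 moved at 5 μM (3 higher, 1 lower), against 45%. After 5 days, 7 of 9 rose and none fell at 1 μM, against 46.3% (23.4% higher, 22.9% lower). All 9 tested members moved at 5 μM (7 higher, 2 lower), against 68.2%. Raising the dose from 1 to 5 μM at day 5 moved 7 of 9 (5 higher, 2 lower), against 53.6%. Time alone, DMSO at day 5 against day 1, moved 1 of 9, against 24.5%. The change of an olaparib effect between days, tested as an interaction, was past the threshold for 4 of 9 at 1 μM, against 29.8%, and for 6 of 9 at 5 μM, against 54.9%.

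**Figure D2:**
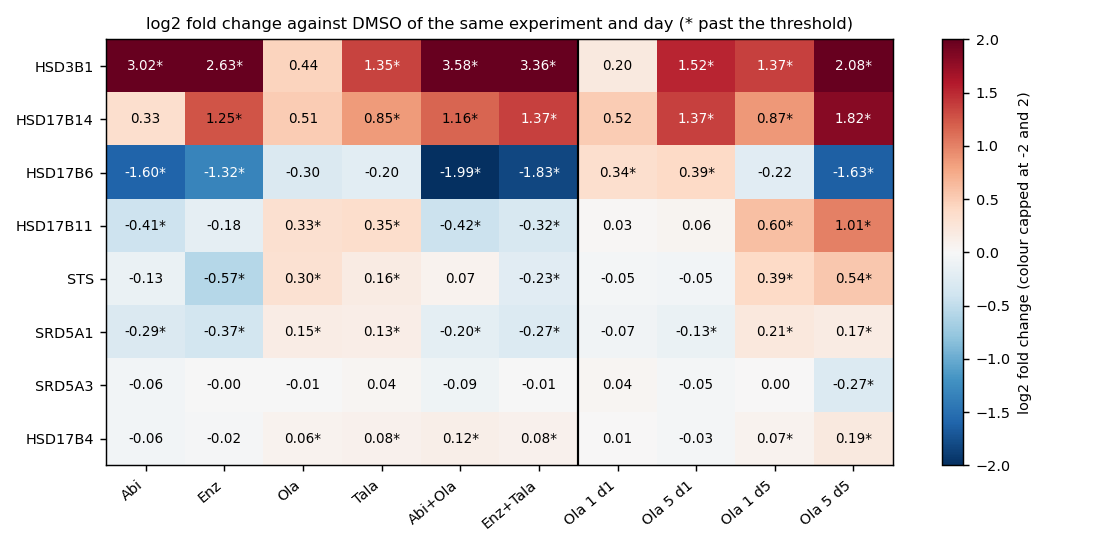
Log2 fold change of 8 members against DMSO of the same experiment and day (colours capped at -2 and 2; stars mark adjusted p under 0.05; Ola 1 and Ola 5 are olaparib at 1 and 5 μM, d1 and d5 the day). HSD3B1 and HSD17B14 are red across the drugs, HSD17B6 is blue with either ARPi and with 5 μM olaparib at day 5, and HSD17B11, STS and SRD5A1 are blue or near white with ARPi and red with a PARPi alone at day 5.

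CYP17A1 (chr10:102830531-102837472, minus strand, 8 exons), the hydroxylase and lyase that abiraterone inhibits, was close to the floor of detection. Its estimated counts were 1, 2 and 7 in panel DMSO, 0, 0 and 0 with abiraterone, 3, 1 and 1 with enzalutamide, 9, 16 and 8 with olaparib, and 18, 11 and 21 with talazoparib. Combinations gave 3, 1 and 3 for abiraterone plus olaparib and 0, 0 and 0 for enzalutamide plus talazoparib. Every library with a PARPi alone stood above every DMSO library, and no library with an ARPi, alone or in combination, stood above 3 counts. With a group at 0 set to 3 counts over the group and the other group's counts taken as they are, CYP17A1 was at least 3.17-fold lower with abiraterone than with DMSO and at least 4.08-fold lower with enzalutamide plus talazoparib. The 95% exact intervals, which also hold the counting error of DMSO, allow smaller falls, with CPM ratios to DMSO of up to 0.468 and 0.364. Both limits rest on 10 counts in DMSO, of which replicate C gave 7, and without DMSO replicate C the abiraterone call was lost (adjusted p = 0.0605 by edgeR). Intervals and limits of this kind cover counting error only.

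With PARPi alone, CYP17A1 counts were higher than in DMSO, but the gene became testable only through groups where it was high. In the panel 3 libraries exceeded the filter of 0.2751 CPM, olaparib B and talazoparib A and C, and in the time course the only groups wholly above theirs were both olaparib doses at day 5, so the p-values given with the filter are descriptions and support no rise. The fit without a filter, which does not select genes this way, gave adjusted p = 0.0722 by edgeR for olaparib and 0.0107 for talazoparib in the panel, and 0.000466 and 0.000103 for 1 and 5 μM at day 5. The ratio of CPM to DMSO was 3.15 (95% exact interval 1.51 to 7.16) with olaparib and 4.22 (2.12 to 9.34) with talazoparib, and the log2 fold changes were 1.65 ± 0.63 (SE, adjusted p = 0.0407 by edgeR) and 2.07 ± 0.61 (adjusted p = 0.00805). The olaparib call was lost when any 1 of 5 libraries was left out (DMSO A or B, olaparib A, B or C), with log2 fold changes from 1.25 to 1.80 and adjusted p from 0.0506 to 0.212. DESeq2 lost it as well, and without DMSO replicate B the talazoparib value was 1.83 and no longer past the threshold. Over all alternatives the log2 fold change ran from 1.25 to 2.62 with olaparib and from 1.74 to 3.04 with talazoparib, so its size is uncertain. Time course counts were 6, 6 and 3 in DMSO at day 5, 12, 17 and 21 with 1 μM olaparib, and 12, 24 and 16 with 5 μM. There the log2 fold change was 1.85 ± 0.43 (adjusted p = 0.000452 by edgeR) and 1.95 ± 0.43 (adjusted p = 0.000123), and leaving out any single library kept both calls. The fits with a library left out used the same filter, so the kept calls support no rise either. The 2 doses did not differ measurably at day 5 (log2 difference 0.09, 95% interval -0.63 to 0.82). At day 1, counts of 7, 10 and 6 with 5 μM against 4, 2 and 5 in DMSO gave 1.09 ± 0.51, which did not pass (adjusted p = 0.0793).

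**Figure D3:**
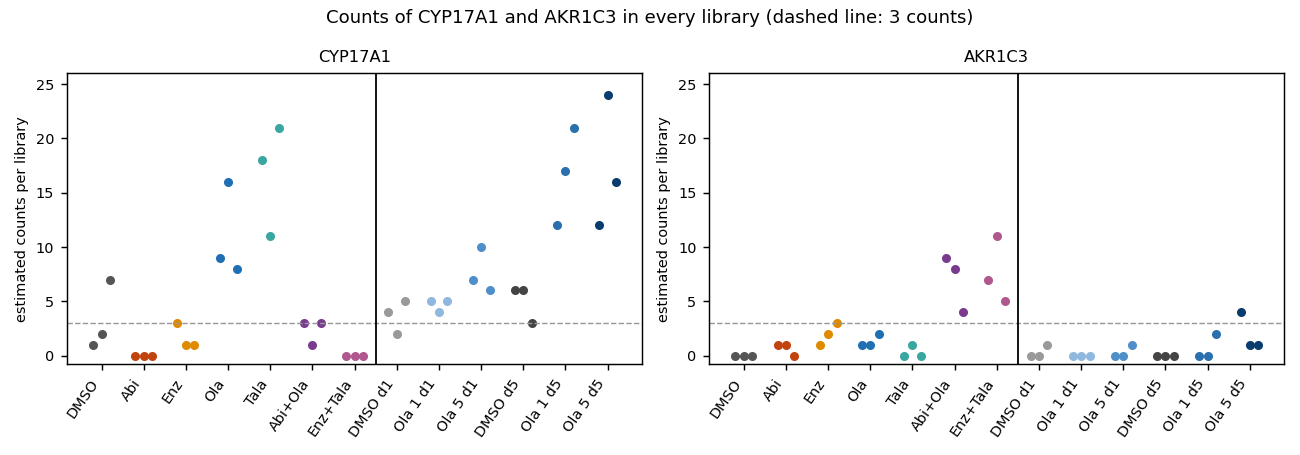
Estimated counts per library of CYP17A1 and AKR1C3 in the 13 groups (panel left of the line, time course right of it; each point is 1 library, dashed line at 3 counts; Ola 1 and Ola 5 are olaparib at 1 and 5 μM). CYP17A1 reaches 8 to 21 counts with a PARPi alone in the panel and is at 0 with abiraterone, and AKR1C3 leaves the floor mainly in the 2 combinations.

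HSD3B1 (chr1:119507198-119515054, plus strand, 4 exons), the dehydrogenase and isomerase that turns dehydroepiandrosterone into androstenedione, showed the largest rise of the set under ARPi. Its counts were 2, 5 and 7 in DMSO, 31, 39 and 39 with abiraterone and 23, 41 and 34 with enzalutamide, so the groups were far from overlapping. The CPM ratio to DMSO was 8.18 (95% exact interval 4.67 to 15.4) with abiraterone and 6.33 (3.60 to 12.0) with enzalutamide. Log2 fold changes were 3.02 ± 0.36 (SE, adjusted p = 7.47e-09 by edgeR) and 2.63 ± 0.37 (adjusted p = 1.53e-07), and the direct comparison of both ARPi gave -0.38 (95% interval -0.94 to 0.18, adjusted p = 0.379). The combinations stood highest, at 48, 68 and 44 counts with abiraterone plus olaparib and 64, 63 and 51 with enzalutamide plus talazoparib, or 3.58 ± 0.35 and 3.36 ± 0.35 on the log2 scale. In the panel HSD3B1 passed the filter through the 4 groups with an ARPi, where it was high, and no DMSO library exceeded it. Without a filter the adjusted p was 2.77e-14 with abiraterone and 8.45e-11 with enzalutamide. HSD3B1 shares sequence with HSD3B2, which held a mean of at most 2.33 counts in any group, and the split of reads between such copies by Salmon is uncertain.

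Of the PARPi in the panel, talazoparib passed the test for HSD3B1 and olaparib did not. Counts were 12, 4 and 4 with olaparib, overlapping DMSO, and 15, 17 and 10 with talazoparib, above it. The talazoparib change of 1.35 ± 0.40 passed (adjusted p = 0.00863 by edgeR) and was lost without DMSO replicate A or talazoparib replicate B (adjusted p = 0.0503 and 0.0507), while olaparib gave 0.44 ± 0.45 (adjusted p = 0.532). In the time course, DMSO held 14, 18 and 11 counts at day 5, 1 μM olaparib 26, 42 and 34, and 5 μM 63, 37 and 62. These were rises of 1.37 ± 0.31 (adjusted p = 0.000341 by edgeR) and 2.08 ± 0.30 (adjusted p = 1.11e-07). The dose effect between them, 0.71 ± 0.27 (adjusted p = 0.0239), was lost when 1 μM replicate 1 or 3 or 5 μM replicate 1 or 3 was left out (adjusted p from 0.0518 to 0.137) and by DESeq2. At 5 μM the rise was already 1.52 ± 0.33 after 1 day (adjusted p = 0.00025).

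HSD17B6 (chr12:56752161-56787790, plus strand, 5 exons), an oxidative enzyme that can return 3α-androstanediol to dihydrotestosterone, moved the opposite way. Its CPM was 3.84, 3.49 and 3.62 in DMSO, 1.02, 1.37 and 1.23 with abiraterone and 1.37, 1.51 and 1.48 with enzalutamide. Every ARPi library, single or combined, stood below every DMSO library and every library with a PARPi alone in the panel. The fall was 1.60 ± 0.19 on the log2 scale with abiraterone (log2 fold change -1.60, adjusted p = 6.79e-09 by edgeR) and -1.32 ± 0.18 with enzalutamide (adjusted p = 1.59e-07), reaching -1.99 ± 0.20 and -1.83 ± 0.19 in the combinations. Olaparib (2.97 ± 0.282 CPM, SD) and talazoparib (3.17 ± 0.265) were not past the threshold in the panel, at -0.30 ± 0.17 and -0.20 ± 0.17.

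With olaparib over time, HSD17B6 depended on both dose and day. At day 1 its CPM was 2.93, 2.55 and 2.83 in DMSO and 3.48, 3.60 and 3.80 with 5 μM olaparib, a rise of 0.39 ± 0.12 (adjusted p = 0.00645 by edgeR). At day 5 it was 3.17, 3.20 and 3.04 in DMSO, 2.52, 2.79 and 2.74 with 1 μM and 1.06, 0.870 and 1.10 with 5 μM. The high dose thus went from above DMSO at day 1 to less than any other group of the time course at day 5, without overlap. The day 5 change at 5 μM was -1.63 ± 0.14 (adjusted p = 3.56e-13), and at 1 μM -0.22 ± 0.12 (adjusted p = 0.127). The change of the effect between days was -2.02 ± 0.18 at 5 μM (adjusted p = 4.86e-12) and -0.56 ± 0.17 at 1 μM (adjusted p = 0.00939). A rise with 1 μM at day 1 of 0.34 ± 0.12 (adjusted p = 0.0459) was lost when any 1 of the 6 libraries compared was left out (adjusted p from 0.0567 to 0.173), with DESeq2, with the replicate block, without a filter, and when only these groups were fitted.

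HSD17B14 (chr19:48813018-48836510, minus strand, 9 exons), which oxidises the 17-hydroxyl group of estradiol and related steroids, rose with enzalutamide, with talazoparib and, in the time course, with 1 μM olaparib at day 5 and 5 μM at both days. Its CPM was 0.645, 0.699 and 0.557 in DMSO, 1.70, 1.51 and 1.34 with enzalutamide, and 0.610, 1.05 and 0.739 with abiraterone, whose libraries overlapped DMSO. Enzalutamide gave 1.25 ± 0.25 (adjusted p = 5.18e-05 by edgeR) and abiraterone 0.33 ± 0.26 (adjusted p = 0.303). The 2 ARPi, given at different doses, differed by 0.92 ± 0.24 (adjusted p = 0.00533). With talazoparib the 3 libraries held 1.26, 1.27 and 0.912 CPM, a rise of 0.85 ± 0.25 (adjusted p = 0.00781), and with olaparib 1.08, 0.904 and 0.716 CPM, at 0.51 ± 0.26 (adjusted p = 0.127). Against DMSO it also rose in both combinations, by 1.16 ± 0.25 and 1.37 ± 0.24. Olaparib added to abiraterone raised it by 0.83 ± 0.25 (adjusted p = 0.00931), a call lost without abiraterone replicate A or combination replicate B (adjusted p = 0.0702 and 0.0737). In the time course the 5 μM dose gave 1.37 ± 0.27 at day 1 (adjusted p = 7.1e-05) and 1.82 ± 0.25 at day 5 (adjusted p = 6.93e-08), the latter at 1.74, 1.54 and 1.29 CPM against 0.419, 0.515 and 0.360 in DMSO. With 1 μM it changed by 0.52 ± 0.29 at day 1 (adjusted p = 0.26) and rose by 0.87 ± 0.27 at day 5 (adjusted p = 0.0074 by edgeR), at 0.804, 0.813 and 0.754 CPM.

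**Figure D4:**
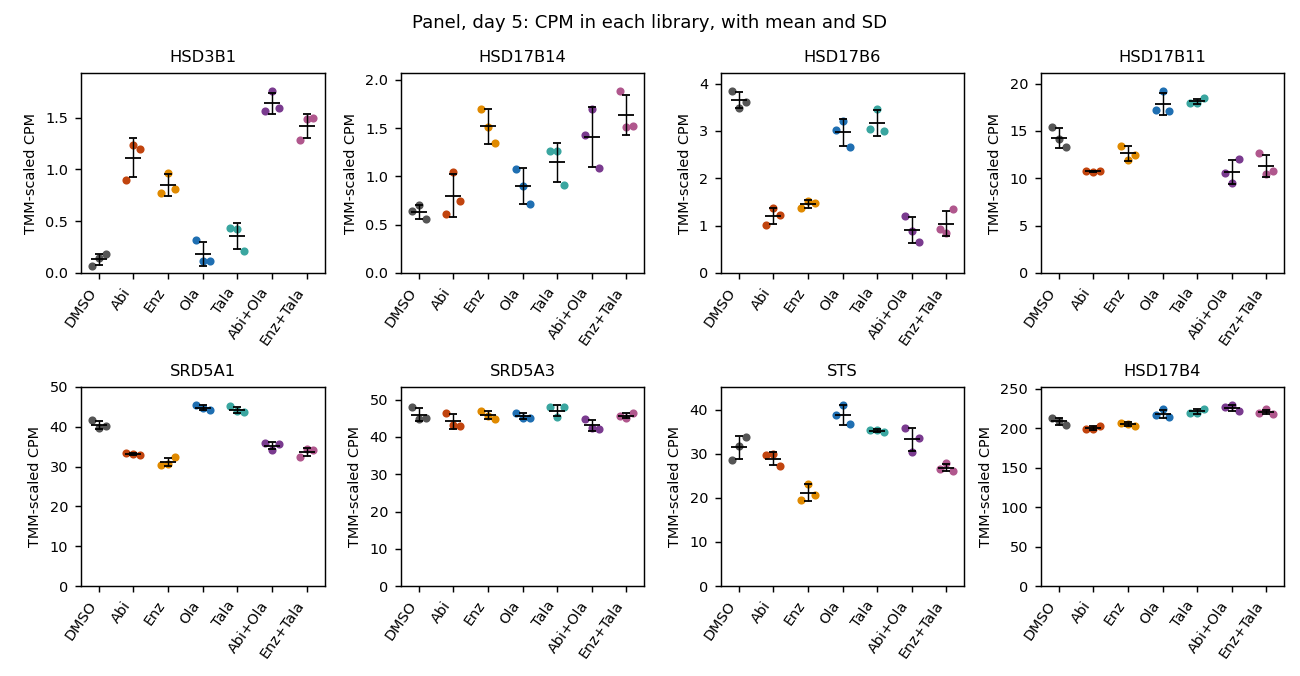
CPM of 8 members in each panel library after 5 days (points, 1 library each; bars, mean and SD of 3; axes start at 0). HSD3B1 stands near 0.130 CPM in DMSO and 1.64 with abiraterone plus olaparib, HSD17B6 falls from 3.65 to 0.911 between the same groups, and HSD17B11 has lower means in the ARPi groups and higher ones with either PARPi.

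HSD17B11 (chr4:87336515-87391188, minus strand, 7 exons), a dehydrogenase of lipid droplets that oxidises 17-hydroxysteroids, fell with abiraterone and rose with either PARPi. CPM was 15.4, 14.2 and 13.3 in DMSO, 10.8, 10.6 and 10.7 with abiraterone, 17.2, 19.2 and 17.1 with olaparib and 17.9, 17.96 and 18.4 with talazoparib. None of these treated groups overlapped DMSO. Abiraterone gave -0.41 ± 0.08 (adjusted p = 6.52e-05 by edgeR), olaparib 0.33 ± 0.08 (adjusted p = 0.000954) and talazoparib 0.35 ± 0.08 (adjusted p = 0.000435). Enzalutamide, at 13.4, 11.9 and 12.5 CPM, gave -0.18 ± 0.08 (adjusted p = 0.0585), which passed without DMSO replicate C or enzalutamide replicate A (adjusted p = 0.026 and 0.0347).

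In the combinations HSD17B11 stayed at the ARPi level. It was at 10.6, 9.49 and 12.0 CPM with abiraterone plus olaparib (-0.42 ± 0.08) and at 12.7, 10.5 and 10.8 with enzalutamide plus talazoparib (-0.32 ± 0.08). Olaparib added to abiraterone changed it by -0.01 (95% interval -0.19 to 0.16), and talazoparib added to enzalutamide by -0.15 (-0.31 to 0.01), which passed without combination replicate A (adjusted p = 0.0366 by edgeR). Tested as departures from the sum of the single drugs, the interactions were -0.34 ± 0.11 for abiraterone and olaparib (adjusted p = 0.0461) and -0.50 ± 0.11 for enzalutamide and talazoparib (adjusted p = 0.00212). Interactions of these drug pairs were past the threshold for 2 of 9 members each, against 12.8% and 12.6% of all genes. The first was lost when any 1 of 10 of its 12 libraries was left out (all but DMSO replicate A and combination replicate C; adjusted p from 0.0569 to 0.187), with total count scaling (0.0624) and with only the groups compared (0.0622), and the second was kept without any single library.

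The time course gave the same gene with no response at day 1 and a graded one at day 5. HSD17B11 was at 11.9 ± 0.863 CPM (SD, n = 3) in DMSO at day 1, 12.1 ± 0.489 with 1 μM olaparib and 12.4 ± 0.810 with 5 μM. At day 5 the libraries held 12.0, 11.4 and 11.4 CPM in DMSO, 17.4, 17.8 and 17.7 with 1 μM and 22.9, 24.4 and 23.2 with 5 μM, 3 levels that did not overlap. The rises were 0.60 ± 0.06 (adjusted p = 3.81e-11 by edgeR) and 1.01 ± 0.06 (adjusted p = 1.56e-18), the dose step was 0.42 ± 0.05 (adjusted p = 1.93e-08), and the gain from day 1 to day 5 was 0.57 ± 0.08 and 0.96 ± 0.08 for the 2 doses (adjusted p = 8.24e-07 and 1.45e-12).

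HSD17B4 (chr5:119452465-119637199, plus strand, 24 exons), the peroxisomal bifunctional enzyme of fatty acid β-oxidation that also oxidises estradiol, was the most abundant member. Its group means ran from 200.7 to 226.3 CPM in the panel and from 177 to 220 in the time course. ARPi did not move it past the threshold (-0.057 ± 0.026 with abiraterone, -0.024 ± 0.026 with enzalutamide), though without DMSO replicate C abiraterone gave -0.076 (adjusted p = 0.0251 by edgeR), and scaling by total counts turned the abiraterone value to 0.011. The rise with 5 μM olaparib at day 5, from 194, 189 and 195 to 223, 220 and 216 CPM, was 0.19 ± 0.02 (adjusted p = 2.22e-09), and with abiraterone plus olaparib it was 0.12 ± 0.03 (adjusted p = 0.000178). It was also the member that moved with time alone, by 0.090 ± 0.023 between DMSO at day 1 and day 5 (adjusted p = 0.00316).

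Smaller calls on HSD17B4 were fragile. With olaparib in the panel 0.065 ± 0.026 (adjusted p = 0.0469 by edgeR) was lost without DMSO B or C or any olaparib replicate (adjusted p from 0.087 to 0.473). With talazoparib 0.085 ± 0.026 (adjusted p = 0.00932) was lost without DMSO C or talazoparib B or C (adjusted p from 0.0511 to 0.133), and both were lost with total count scaling. With 1 μM olaparib at day 5, 0.070 ± 0.023 (adjusted p = 0.0108) was lost without DMSO replicate 2 or olaparib replicate 3 (adjusted p = 0.0773 and 0.0717). With enzalutamide plus talazoparib, 0.080 ± 0.026 (adjusted p = 0.00664) was lost without DMSO replicate C (adjusted p = 0.0611). The panel olaparib value was also lost with RLE scaling, the replicate block, no filter, a mean of at least 10 counts and only the groups compared, the talazoparib value with only the groups compared (adjusted p = 0.0801), and the 1 μM day 5 value with total count scaling (adjusted p = 0.0726).

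SRD5A1 (chr5:6633427-6674386, plus strand, 5 exons), the 5α-reductase that acts on androstenedione and testosterone, fell with ARPi and rose with a PARPi alone. CPM was 41.7, 39.6 and 40.2 in DMSO, 33.5, 33.2 and 32.8 with abiraterone, 30.5, 30.7 and 32.4 with enzalutamide, 45.5, 44.7 and 44.2 with olaparib and 45.2, 43.8 and 43.7 with talazoparib. All ARPi libraries lay below DMSO and all PARPi libraries above it. The changes were -0.29 ± 0.04 (adjusted p = 3.3e-07 by edgeR), -0.37 ± 0.04 (adjusted p = 1.11e-09), 0.15 ± 0.04 (adjusted p = 0.00351) and 0.13 ± 0.04 (adjusted p = 0.011). The last was lost without DMSO replicate B or talazoparib replicate A (adjusted p = 0.0577 and 0.0935), with total count scaling and with only the groups compared. The combinations stayed below DMSO at -0.20 ± 0.04 and -0.27 ± 0.04.

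With 5 μM olaparib SRD5A1 was lower at day 1 and higher at day 5. At 5 μM it was at 33.1, 31.8 and 34.6 CPM at day 1, against 37.9, 34.5 and 36.8 in DMSO, and at 39.03, 40.8 and 40.2 at day 5, against 35.6, 36.5 and 34.5. The groups overlapped at day 1, where the highest treated library was just above the lowest of DMSO, and did not at day 5. The day 1 fall of 0.13 on the log2 scale (log2 fold change -0.13 ± 0.04, adjusted p = 0.00582 by edgeR) was lost without DMSO replicate 1 or olaparib replicate 2 (adjusted p = 0.0506 and 0.0555) and with total count scaling. The day 5 rise was 0.17 ± 0.04 (adjusted p = 0.000147), and 0.21 ± 0.04 at 1 μM (adjusted p = 1.5e-05). Over the alternatives the 5 μM rise ran from 0.089 to 0.198 and kept its call. The doses differed by -0.04 at day 5 (95% interval -0.12 to 0.04), which became -0.098 and passed with total count scaling (adjusted p = 0.0228).

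SRD5A3 (chr4:55346213-55373100, plus strand, 5 exons), which carries the family name but works in the synthesis of dolichol for protein glycosylation, was the flattest member in the panel. Its group means ran from 43.1 to 47.1 CPM there. No panel treatment passed against DMSO, the nearest being abiraterone plus olaparib at -0.093 ± 0.042 (adjusted p = 0.0534 by edgeR), which passed with the replicate block (adjusted p = 0.0351) and without DMSO B or C or combination A (adjusted p from 0.0234 to 0.0446). The exception in the time course was 5 μM olaparib at day 5, with 36.0, 36.9 and 34.3 CPM against 44.5, 42.6 and 42.1, below DMSO without overlap. That change was -0.27 ± 0.04 (adjusted p = 3.76e-08), while 1 μM gave 0.0048 ± 0.036 at the same day.

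**Figure D5:**
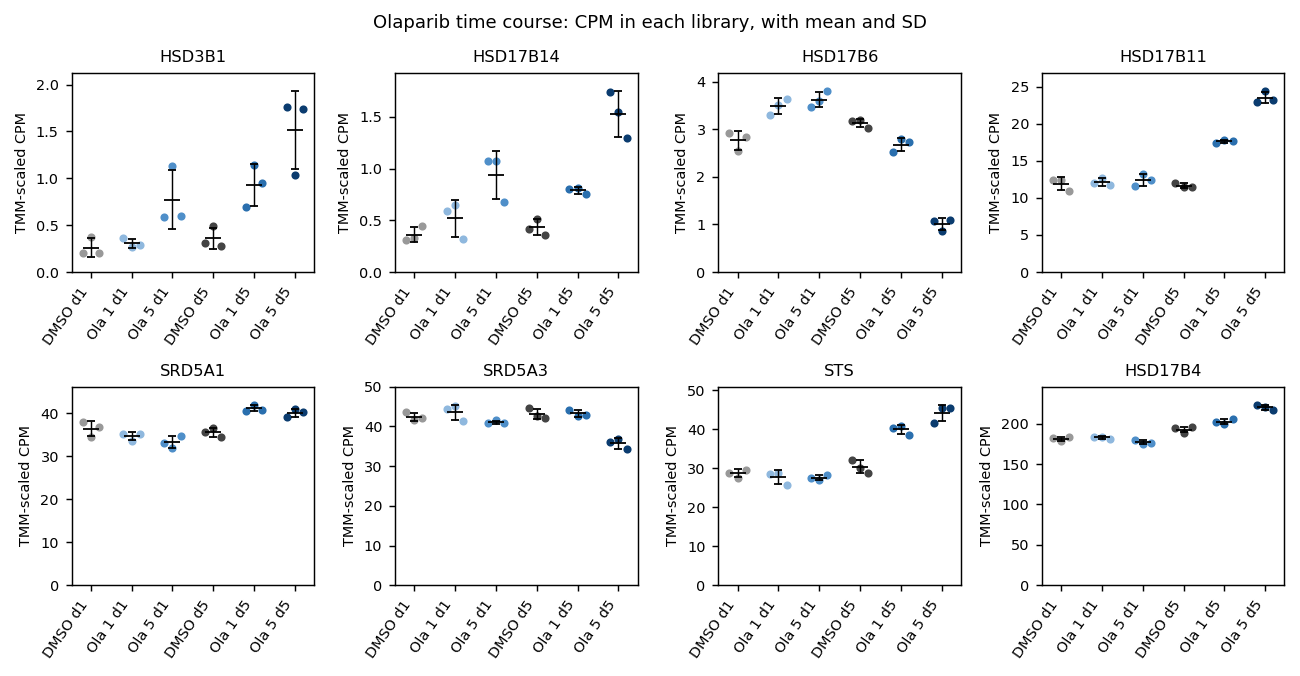
CPM of 8 members in each library of the olaparib time course (points, 1 library each; bars, mean and SD of 3; d1 and d5, day; Ola 1 and Ola 5, olaparib at 1 and 5 μM; axes start at 0). HSD17B11 reaches 23.5 CPM and STS 44.2 at day 5 with 5 μM, while HSD17B6 falls to 1.01 and SRD5A3 to 35.7.

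AKR1C3 (chr10:5035354-5107686, plus strand, 9 exons), which reduces androstenedione to testosterone, was at or near 0. Counts were 0, 0 and 0 in panel DMSO, 1, 1 and 0 with abiraterone, 1, 2 and 3 with enzalutamide, 1, 1 and 2 with olaparib and 0, 1 and 0 with talazoparib. The combinations held 9, 8 and 4 counts with abiraterone plus olaparib and 7, 11 and 5 with enzalutamide plus talazoparib, each library above every library of the other panel groups. Against 3 counts over the DMSO group these are at least 7.45-fold and at least 6.26-fold higher if their own counts are taken as they are, and the 95% exact intervals reach down to ratios of 5.54 and 4.69. Against abiraterone alone, 21 counts stood against 2, a CPM ratio of 10.6 (95% exact interval 2.60 to 93.6), and against enzalutamide alone 23 against 6, a ratio of 3.46 (1.37 to 10.4). In the time course the highest library held 4 counts. With the filter on low counts the gene was not tested across genes, and its values from the fit without a filter are not given here. How reads were shared with its relatives AKR1C1 and AKR1C2, which had group means of up to 4.67 and 6.67 counts, was not tested.

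STS (chrX:7147237-7804358, plus strand, 11 exons), the sulfatase that frees dehydroepiandrosterone from its sulfate, separated the 2 ARPi. CPM was 28.7, 31.8 and 33.8 in DMSO, 29.7, 29.9 and 27.1 with abiraterone and 19.5, 23.2 and 20.6 with enzalutamide, which lay below both without overlap. Enzalutamide gave -0.57 ± 0.07 (adjusted p = 1.01e-08 by edgeR) and abiraterone -0.13 ± 0.06 (adjusted p = 0.106), the latter past the threshold without DMSO replicate A (adjusted p = 0.0182). The difference between the ARPi was -0.45 ± 0.07 (adjusted p = 8.28e-06). Enzalutamide against abiraterone was past the threshold for 3 of 9 members (HSD17B14, HSD17B11 and STS), against 19.8% of all genes. The HSD17B11 difference of 0.23 ± 0.08 (adjusted p = 0.0425) was lost without any abiraterone replicate or enzalutamide A or C (adjusted p from 0.0849 to 0.171), and with RLE and total count scaling (adjusted p = 0.0522 and 0.063).

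STS was higher with a PARPi alone at day 5. Olaparib gave 38.7, 41.1 and 36.6 CPM, a rise of 0.30 ± 0.06 (adjusted p = 0.000269 by edgeR), and talazoparib 35.5, 35.3 and 34.9, at 0.16 ± 0.06 (adjusted p = 0.0477), lost without DMSO A or B or any talazoparib replicate (adjusted p from 0.0914 to 0.255). That call was also lost with the replicate block (adjusted p = 0.0537), with RLE and total count scaling (0.056 and 0.173) and with only the groups compared (0.0551). Against DMSO the combinations did not share the rise, at 0.07 ± 0.06 with abiraterone plus olaparib (adjusted p = 0.339) and -0.23 ± 0.06 with enzalutamide plus talazoparib (adjusted p = 0.00227). At day 5 of the time course the libraries held 32.2, 30.1 and 28.9 CPM in DMSO, 40.4, 40.9 and 38.7 with 1 μM olaparib and 41.7, 45.4 and 45.5 with 5 μM. No day 5 olaparib library overlapped DMSO, whereas at day 1 the changes were -0.05 ± 0.05 at both doses. The day 5 rises were 0.39 ± 0.04 (adjusted p = 2.49e-09) and 0.54 ± 0.04 (adjusted p = 2.62e-13).

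Each combination, in which both drugs were given together, was also compared with its ARPi alone. Olaparib added to abiraterone moved 4 of 9 members, all up, against 29.2% of all genes (14.4% higher, 14.7% lower). Talazoparib added to enzalutamide moved 6 of 9 (4 higher, 2 lower), against 34.4%. HSD17B4 rose in both, by 0.17 ± 0.03 (adjusted p = 2.23e-06 by edgeR) and 0.10 ± 0.03 (adjusted p = 0.0014), and kept both calls without any single library. STS rose by 0.20 ± 0.06 (adjusted p = 0.0213) with olaparib added, a call lost without abiraterone C or combination A or C (adjusted p from 0.0613 to 0.18), and by 0.34 ± 0.07 (adjusted p = 0.00013) with talazoparib added. CYP17A1 held 7 counts over the group with olaparib added against 0, and 0 against 5 with talazoparib added. The 95% exact intervals of the CPM ratio reach down to 1.46 in the first case and up to 0.984, close to no change, in the second. The edgeR calls were lost without any abiraterone replicate or combination A or C in the first case (adjusted p from 0.0642 to 0.0736), and without enzalutamide A or any combination replicate in the second (adjusted p from 0.0926 to 0.177). With talazoparib added, HSD3B1 rose by 0.73 ± 0.27 (adjusted p = 0.0329), lost without enzalutamide A or C or combination B or C (adjusted p from 0.0797 to 0.1). SRD5A1 rose by 0.10 ± 0.04 (adjusted p = 0.0461), lost without enzalutamide A or B or combination B or C (adjusted p from 0.0767 to 0.162). HSD17B6 changed by -0.50 ± 0.20 (adjusted p = 0.0469), lost without any enzalutamide replicate or combination A or B (adjusted p from 0.0628 to 0.228). The fit without a filter ended these 4 calls with talazoparib added, for CYP17A1, HSD3B1, SRD5A1 and HSD17B6 (adjusted p = 0.0511, 0.0548, 0.0928 and 0.118 by edgeR). The replicate block ended those of CYP17A1, SRD5A1 and HSD17B6 (0.0557, 0.0537 and 0.0573), only the groups compared those of SRD5A1 and HSD17B6 (0.058 and 0.0843), and total count scaling that of SRD5A1 (0.109).

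Talazoparib at 10 nM and olaparib at 1 μM, different PARPi at different doses, were set against each other in the panel. None of 9 members was past the threshold by edgeR or by DESeq2, against 8.36% of all genes by edgeR, and 2 had an unadjusted p under 0.05 (HSD3B1 and STS). HSD3B1 differed by 0.91 (95% interval 0.14 to 1.68, adjusted p = 0.141 by edgeR) and passed without olaparib replicate A, at 1.59 (adjusted p = 0.0344), that replicate holding 12 of the 20 olaparib counts. STS differed by -0.14 (-0.27 to -0.02, adjusted p = 0.164). For SRD5A1 the interval was -0.10 to 0.06 and for HSD17B11 -0.13 to 0.18, while for CYP17A1 it was as wide as -0.62 to 1.46.

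Other genes of the pathway were counted from lists around the members, each beside the background shares given above. Of 8 genes of substrate supply and electron transfer, 7 were tested, with 4 higher and 3 lower under abiraterone, 2 and 3 under enzalutamide, 2 and 1 under olaparib, and 4 and none under talazoparib. Their median log2 fold change was 0.22 with abiraterone and 0.14 with olaparib, beside 0.00030 and 0.015 over all genes. CYP11A1, the side-chain cleavage enzyme that begins steroid synthesis, fell from 2.66 ± 0.116 CPM (SD, n = 3) in DMSO to 0.304 ± 0.0444 with abiraterone and 0.0731 ± 0.0430 with enzalutamide, and rose to 4.34 ± 0.731 with olaparib. FDXR, the reductase of the ferredoxin FDX1, which in turn passes electrons to CYP11A1, rose by 1.12 ± 0.06 (SE) with olaparib and by 2.25 ± 0.03 with 5 μM olaparib at day 5, while FDX1 changed by -0.16 ± 0.05 and -0.14 ± 0.04. CYB5A, the cytochrome that aids the lyase step of CYP17A1, changed by -0.51 ± 0.03 with enzalutamide.

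Among 19 other steroid dehydrogenases, 14 were tested. Of these, 4 rose and 5 fell with abiraterone, 5 rose and 4 fell with enzalutamide, and 5 rose and none fell with olaparib, with medians of 0.0068, 0.11 and 0.093. RDH16, an oxidative dehydrogenase of retinol and 3α-hydroxysteroids, fell from 6.73 ± 0.521 CPM in DMSO to 1.63 ± 0.409 with abiraterone and 1.29 ± 0.349 with enzalutamide, and to 2.99 ± 0.235 with 5 μM olaparib at day 5 against 7.06 ± 0.166. HSD17B10 changed by -0.52 ± 0.03 (SE) and HSDL2 by 0.48 ± 0.03 with abiraterone. HSD17B3, the testicular enzyme that makes testosterone, and HSD3B2, the adrenal and gonadal partner of HSD3B1, were at the floor, with group means of at most 0.333 and 2.33 counts.

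Of 5 other reductases only AKR1D1, the 5β-reductase that inactivates steroids, was tested. It went from 4.15 ± 0.493 CPM in DMSO to 0.0587 ± 0.0765 with abiraterone and 0.0190 ± 0.0172 with enzalutamide, and stood at 3.31 ± 0.527 with olaparib. SRD5A2, the prostate 5α-reductase, had group means of at most 1.67 counts, and AKR1C4 had no count. Of 8 copies and antisense genes of the members, none held enough counts to be tested. Of 8 other steroid P450 genes 3 were tested, with 2 higher under abiraterone and 1 under each other single drug, and none fell.

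The sulfate cycle around STS had 6 of 11 genes tested, of which 5 rose and 1 fell with either ARPi and 3 rose and 1 fell with either PARPi. Their median was 0.74 with abiraterone and -0.063 with olaparib. PAPSS1, which makes the sulfate donor of the sulfotransferases, rose from 54.5 ± 2.80 CPM in DMSO to 104.9 ± 4.44 with abiraterone and 189.7 ± 8.11 with enzalutamide, and held 45.3 ± 1.67 with olaparib. SULT2B1, a hydroxysteroid sulfotransferase, rose by 1.01 ± 0.13 (SE) and 1.12 ± 0.13 with the 2 ARPi and changed by -1.51 ± 0.13 with 5 μM olaparib at day 5. SULT1A1 rose with each single drug of the panel, most with talazoparib (0.71 ± 0.11).

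All 9 peroxisomal partners of HSD17B4 were tested. Of these 7 rose and none fell with olaparib, 6 and none with talazoparib, and 7 rose and 2 fell with 5 μM olaparib at day 5, while abiraterone gave 3 and 3. Their median was 0.21 with olaparib and 0.053 with abiraterone. ACOX2, the oxidase of branched-chain and bile acid intermediates, changed by -1.26 ± 0.09 with abiraterone and by 0.75 ± 0.08 with olaparib, and AMACR, the racemase used as a prostate cancer marker, rose by 1.12 ± 0.04 with abiraterone and by 1.43 ± 0.03 with 5 μM olaparib at day 5. ACAA1 changed by -0.49 ± 0.04 with enzalutamide. The dolichol genes around SRD5A3 (5 counted) fell in 4 cases with abiraterone and in 5 with enzalutamide, and none rose. DPAGT1 changed by -0.49 ± 0.04 and DOLK by -0.42 ± 0.05 with enzalutamide and NUS1 by -0.44 ± 0.03 with abiraterone, beside an SRD5A3 that did not pass. As a check, the 5 androgen response genes all fell with either ARPi and rose with either PARPi, led by KLK2 (-2.85 ± 0.05), FKBP5 (-2.81 ± 0.03) and TMPRSS2 (-2.80 ± 0.08) with enzalutamide.

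By Pearson's r of log2 CPM over the 21 panel libraries, which share their 7 groups and so their drug effects, the genes most like SRD5A1 were NAT1 (0.989) and MAF (0.988). HSD17B6 was closest to POP1 (0.973) and SSR3 (0.973), HSD3B1 to TLR3 (0.968) and LINC00632 (0.960), and HSD17B11 to FIBP (0.965) and ABHD14B (0.960). STS was closest to CXADR (0.950) and H2BC4 (0.946), CYP17A1 to TMEM120A (0.909) and MSN (0.903), HSD17B4 to CCNG1 (0.909) and LETMD1 (0.897), and HSD17B14 to SETDB1 (0.866) and TTLL1 (0.861). SRD5A3, which hardly moved, had its highest value with ZBTB39 (0.765) and HMGN4 (0.746). These are descriptions over 12403 genes and carry no test.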

How the data were processed

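RNA-seq of C4-2B cells was read from the deposited table of estimated counts per gene. Per the labels and the study's methods, the authors trimmed paired reads with Trim Galore, aligned them to GRCh38 with STAR and quantified genes with Salmon on GENCODE, from stranded mRNA libraries; the deposited values are whole numbers and not normalised. Of 63187 IDs, 62666 were paired with a symbol, by ID without regard to version where needed; the other 521 held 0.12% of counts. Coordinates and transcript lengths are from an earlier GENCODE release on the same build, and SRD5A1 differs in ID version.

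The panel and the time course were fitted apart, each over all its groups and with no covariates, by the robust quasi-likelihood test of edgeR 4.0.16 (R 4.3.3) after TMM scaling and filterByExpr by group, and p-values were adjusted by Benjamini-Hochberg over 18625 (panel) and 18502 (time course) genes. SE is the log2 fold change divided by the root of F. CPM uses TMM-scaled library sizes. Count ratios carry exact conditional intervals at 95%. The fits were tested on simulated counts. Alternatives were RLE and total count scaling, no filter, a mean of at least 10 counts, a replicate block, DESeq2 1.42.0, only the groups compared, and leaving out each library.

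The members and lists were chosen with earlier results of these data known. All 10 members are named; of each other list, the 3 with the largest change past the threshold in a single-drug panel comparison are named where the higher group averaged 100 counts or more, besides genes at the floor that bear on a member. DHRSX, with 2 IDs, was left out of the dolichol list. Replicate libraries of a group differed by 2.18 to 6.03 times the sampling noise (chi-square over degrees of freedom), so none was a copy of another.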

Additional observations from a re-analysis of the deposited data

Results flagged for a closer look

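The values here were set apart because the same contrast gave different effects in 2 settings by a test of the difference itself, edgeR's interaction term with Benjamini-Hochberg adjustment, and no other kind of flag applied to groups of 3.

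Between day 1 and day 5, the effect of 1 μM olaparib differed for HSD17B6 (-0.56 ± 0.17 on the log2 scale, adjusted p = 0.00939), STS (0.44 ± 0.06, adjusted p = 1.26e-06), SRD5A1 (0.28 ± 0.05, adjusted p = 8.23e-05) and HSD17B11 (0.57 ± 0.08, adjusted p = 8.24e-07). The effect of 5 μM differed for HSD17B6 (-2.02 ± 0.18, adjusted p = 4.86e-12), STS (0.59 ± 0.06, adjusted p = 7.77e-10), SRD5A3 (-0.23 ± 0.05, adjusted p = 0.000319), HSD17B4 (0.22 ± 0.03, adjusted p = 2.36e-07), SRD5A1 (0.30 ± 0.05, adjusted p = 1.2e-05) and HSD17B11 (0.96 ± 0.08, adjusted p = 1.45e-12). For HSD17B6 and SRD5A1 at 5 μM the effect changed direction between the days. The SRD5A1 fall at day 1 was itself fragile, lost without DMSO replicate 1 or olaparib replicate 2 and with total count scaling. Leaving out any single library kept each of the 10 calls on a change between days. Over all alternatives the 5 μM change ran from 0.093 to 0.245 for HSD17B4 and from 0.172 to 0.341 for SRD5A1.

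Between the presence and absence of the partner drug, the PARPi effect differed for HSD17B11 (-0.34 ± 0.11, adjusted p = 0.0461, with abiraterone and olaparib, and -0.50 ± 0.11, adjusted p = 0.00212, with enzalutamide and talazoparib), for HSD17B4 (0.11 ± 0.04, adjusted p = 0.0424, with abiraterone and olaparib) and for CYP17A1 (-5.89 ± 1.63, adjusted p = 0.0147, with enzalutamide and talazoparib). The CYP17A1 value rests on 3 libraries at 0 counts in the combination, is no measure of size, and was lost without enzalutamide replicate A (adjusted p = 0.0956). The HSD17B4 call was lost without any 1 of 8 of its 12 libraries (all but DMSO C, abiraterone C, olaparib B and combination C; adjusted p from 0.0629 to 0.115) and without a filter (adjusted p = 0.224).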

How the results depend on the processing

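Of 92 member values past the threshold, 67 passed under every alternative that gave the gene an adjusted p. Some alternatives gave none for CYP17A1 and, in some comparisons, for HSD3B1. Of the 92, 24 lost the call when 1 library was left out and 17 under another alternative, and none of them changed direction. Of the 79 values that never passed, 25 changed sign under some setting. The abiraterone effect on HSD17B4, not past the threshold, turned from -0.057 to 0.011 with total count scaling (adjusted p = 0.738 by edgeR).

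Counts of members past the threshold that moved by more than 1.5 times were the following, with the range over left-out libraries. The abiraterone and olaparib interaction went from 2 to 1 with total count scaling, without a filter and with only the groups compared (0 to 2 over libraries), and the enzalutamide and talazoparib interaction from 2 to 1 with a mean of at least 10 counts, where CYP17A1 is not tested, and with DESeq2 (1 to 2). Olaparib at 1 μM and day 1 went from 1 to 0 without a filter, with the replicate block, with DESeq2 and with only the groups compared (0 to 0). Olaparib in the panel went from 5 to 3 without a filter, with a mean of at least 10 counts and with only the groups compared (3 to 4). Talazoparib went from 7 to 4 with total count scaling and 2 with only the groups compared (4 to 6). Talazoparib added to enzalutamide went from 6 to 2 without a filter, 3 with the replicate block and 3 with only the groups compared (2 to 5), and olaparib added to abiraterone from 4 to between 2 and 3 over libraries. Talazoparib against olaparib went from 0 to between 0 and 1. These counts are out of 9 members tested (10 without a filter), but with only the groups compared 7 were tested for olaparib and for talazoparib against DMSO and 8 for talazoparib added to enzalutamide, for olaparib at 1 μM and day 1 and for the abiraterone and olaparib interaction, so a drop can include members not tested (CYP17A1 and HSD3B1 for either PARPi against DMSO). With a mean of at least 10 counts 8 were tested. Over all genes, calls moved from 2928 to 1932 for 1 μM olaparib at day 1 without DMSO replicate 1, and from 1557 to between 595 and 1035 for talazoparib against olaparib without any olaparib replicate or talazoparib B or C.

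The replicate numbers do not pair the samples: deviations of same-numbered libraries correlated from -0.133 to 0.116, with 2 of 45 pairs over 0.1 in the time course and 0 of 63 in the panel. The replicate block lost 6 member calls and gained 1. Total count scaling lost 10 and gained 1, DESeq2 lost 3. Leaving out a library, or fitting only some groups, leaves fewer samples. For the other settings the cause was not tested. With 3 libraries a group, comparisons with a group under about 10 counts per library carry wide intervals (among them AKR1C3, CYP17A1 against DMSO and HSD3B1 against panel DMSO).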
